A study of Mus musculus with 10 samples.

Results

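Gata4, Gata6, Gata2, Maf, Tfec, Meis1 and Meis2 encode transcription factors associated with the identity of liver sinusoidal endothelium, and their transcripts were measured in endothelial cells isolated from mouse liver. The 7 genes were found by symbol among the 55385 genes listed for each library, and all 7 passed the filter on low counts that left 15043 genes for testing. Of the 7, 5 had fallen in the Alk1-HEC-KO libraries (Gata4, Tfec, Gata2, Maf and Meis2), none was higher by edgeR (nor at an unadjusted p under 0.05, nor by DESeq2 or limma-voom), and Gata6 and Meis1 did not pass the test. The falls ran from 1.16-fold for Meis2 to 1.67-fold for Gata4. Among all genes tested, 19.7% were called in either direction, 10.6% as higher and 9.08% as lower.

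Sinusoidal endothelial cells line the low-pressure capillaries of the liver, where they are perforated by fenestrae, lack a continuous basement membrane and take up waste molecules through scavenger receptors. GATA4 is known as a master regulator of this state in the developing and adult liver, and its loss from liver endothelium is known to give continuous capillaries and fibrosis. c-MAF, encoded by Maf, and MEIS2 have been placed beside GATA4 as factors that favour sinusoidal genes in cultured endothelial cells. GATA2 and GATA6 bind the same core DNA sequence as GATA4. TFEC is a basic helix-loop-helix factor of the MiT-TFE family. MEIS1 and MEIS2 are homeodomain proteins of the TALE class that act together with PBX proteins.

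The series set 5 libraries titled Alk1-HEC-KO, with the genotype given as KO, against 5 titled Control. Its title speaks of mice lacking Alk1, also called Acvrl1, which encodes an endothelial receptor for BMP9 and BMP10. For all 10, the non-hepatocyte fraction of the liver came from a gradient step, and cells carrying CD146 were then pulled out of it with magnetic beads. The sources used here do not give the promoter that drove the deletion, the exons removed, the genotype of the controls beyond WT, or the age and sex of the mice. Nor do they say whether a library stands for 1 mouse, so the p-values describe only how far these samples spread, which may be technical.

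The targeted gene did not follow its label. Acvrl1 ranged from 114 to 136 CPM (counts scaled to a common library total) in the controls and from 239 to 258 CPM in the libraries labelled Alk1-HEC-KO, a log2 fold change of 0.96 ± 0.05 (SE, edgeR adjusted p = 1.7e-07). Counts summed per gene cannot tell which exons the reads came from. The group is therefore called the knockout-labelled libraries, and all directions are those of these libraries against the controls. Library totals lay between 23489494 and 23602771 estimated counts, and mitochondrial transcripts made up 3.45 to 6.43% of them, with control 4 the highest. The first principal component held 46.2% of the variance and separated the groups, with control 5 the nearest of the controls to the other group. Summed pan-endothelial markers (8 genes, Pecam1, Cdh5 and Kdr among them) stood at 10630 to 12250 CPM in controls and 10440 to 11330 CPM in the knockout-labelled libraries. Within that sum Pecam1 and Tie1 were called higher (log2 fold changes 0.24 and 0.31), Kdr and Tek were called lower (-0.33 and -0.34), and the other 4 were not called.

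Of the 7 genes, 4 (Gata2, Tfec, Meis1 and Meis2) had entries in the RefSeq table of mouse promoters on GRCm38.p6. Upstream windows of 250 bases were searched on both strands for a GATA site (AGATAA or TGATAA, or either with G as its last letter), a MEIS site (TGACAG), a MAF half-site (TGCTGAC) and an E-box (CACGTG). These are letters that factors of the families described here are known to bind. Upstream means before a RefSeq start, which can lie inside the annotated gene. Of the 5 windows of these genes, 2 lay outside the gene bodies. The Meis2 window and the Gata2 window not shown lay wholly inside them, and the Meis1 window shared 16 bases. The only match in the 5 windows was a GATA site, TGATAA, that ends 76 bases upstream of the Tfec start, on the gene's own strand. Among 32851 RefSeq windows of this length, 26.5% held a GATA site, 15.9% the MEIS site, 3.81% the MAF half-site and 6.02% the E-box. The Tfec window (chr6:16898442-16898691, minus strand) is shown because it held the match, in capitals, and an upstream Gata2 window (chr6:88193641-88193890, plus strand) is shown beside it as one of a fallen gene without any.
Tfec: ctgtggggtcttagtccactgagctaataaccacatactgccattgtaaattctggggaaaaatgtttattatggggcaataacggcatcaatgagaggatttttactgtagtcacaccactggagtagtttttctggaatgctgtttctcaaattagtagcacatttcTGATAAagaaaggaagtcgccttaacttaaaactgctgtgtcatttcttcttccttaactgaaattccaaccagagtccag
Gata2: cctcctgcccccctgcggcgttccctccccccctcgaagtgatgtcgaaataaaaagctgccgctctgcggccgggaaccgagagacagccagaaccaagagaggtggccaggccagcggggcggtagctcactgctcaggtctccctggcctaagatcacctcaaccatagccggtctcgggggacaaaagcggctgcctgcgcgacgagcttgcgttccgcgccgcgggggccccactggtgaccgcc
Both run 5′ to 3′ on the gene's strand. The Tfec window was 39.2% G and C and the Gata2 window 67.2%, against a median of 52.4% over all windows. A match is a description of the letters, and no binding was measured.

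Levels can be compared between genes only on a scale that accounts for transcript length, here the deposited TPM values. In controls Maf was the most abundant of the 7 at 581 ± 24.4 TPM (SD, n = 5), which placed it 240th among the 55385 genes listed. Gata4 followed at 299 ± 22.5 TPM and Meis2 at 138 ± 15.5 TPM. Tfec stood at 72.8 ± 3.71, Gata2 at 43.2 ± 4.24 and Meis1 at 22.6 ± 2.79 TPM. Gata6 was far below the others at 3.29 ± 0.692 TPM, ranked 11123rd of all genes listed. The same order held in the knockout-labelled libraries, where the means were 512 ± 18 for Maf, 189 ± 16.3 for Gata4, 130 ± 11 for Meis2, 54.5 ± 2.96 for Tfec, 35.0 ± 5.51 for Gata2, 25.4 ± 2.38 for Meis1 and 3.45 ± 0.657 TPM for Gata6. No neighbours in this order had overlapping values in either group of libraries.

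**Figure D1:**
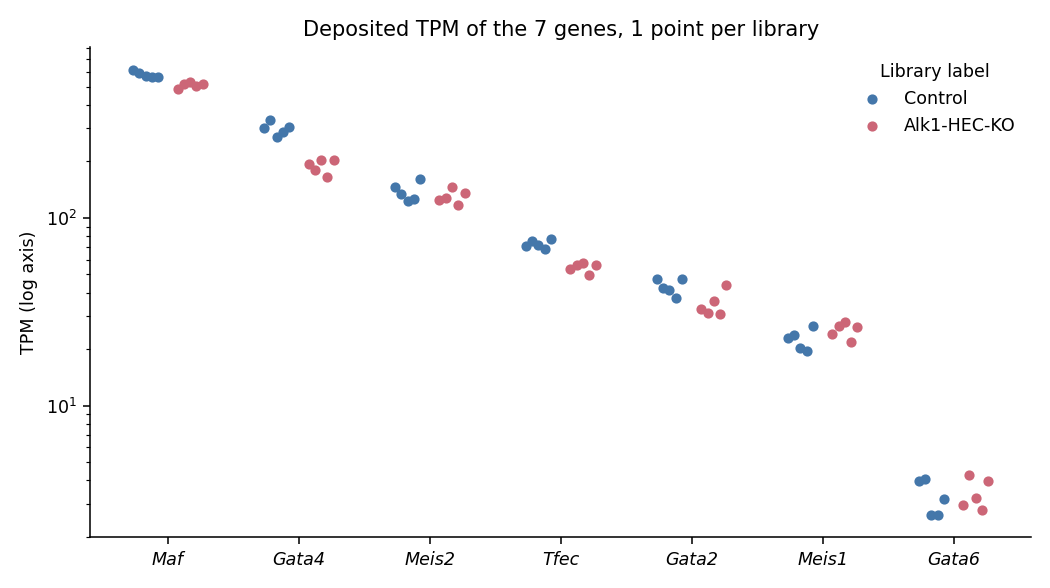
Deposited TPM on a log axis for the 7 genes, ordered by their mean level in controls, with 1 point per library in the order of the replicate numbers. Maf lies highest and Gata6 lowest in both groups, and the values of Gata6, Meis1, Meis2 and Gata2 overlap between the groups on this scale.

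Gata4, the factor most closely tied to the sinusoidal state, had the largest fall of the 7. Gata4 (ENSMUSG00000021944.15) lies on chromosome 14 from 63198922 to 63271692 on the minus strand (GRCm38, as are all positions here). Controls 1 to 5 held 458.6, 532.9, 451.5, 491.4 and 468.8 CPM of Gata4, and knockout-labelled libraries 1 to 5 held 298.8, 267.2, 305.0, 265.2 and 304.5 CPM. The groups did not overlap, and the gap between the lowest control (3) and the highest knockout-labelled library (3) exceeded the range within either group. The share of all genes tested whose groups do not overlap is not given here. No such separation, here or below, is therefore read as particular to a gene. Gata4 averaged 481 ± 32.9 CPM in controls and 288 ± 20.2 CPM in the other group (SD, n = 5 each), so the knockout-labelled libraries held 59.9% of the control level. The log2 fold change was -0.74 ± 0.06 (SE; 95% interval -0.88 to -0.60; edgeR adjusted p = 6.9e-06). In bulk RNA, fewer cells of a type and less RNA per cell cannot be told apart, here and for each gene that follows.

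Gata2 is known in endothelium generally and in blood progenitors and mast cells. Gata2 (ENSMUSG00000015053.14; chromosome 6, 88193891 to 88207032, plus strand) was at 66.42, 58.35, 61.75, 59.98 and 65.24 CPM in controls and at 39.7, 41.83, 47.34, 43.27 and 54.5 CPM in the knockout-labelled libraries, in replicate order. The CPM groups did not overlap, although knockout-labelled library 5 came close to control 2, the lowest control. Gata2 fell from 62.4 ± 3.42 to 45.3 ± 5.84 CPM (SD, n = 5 each), by 0.46 ± 0.08 on the log2 scale (SE; 95% interval -0.64 to -0.29; edgeR adjusted p = 0.0015). In TPM the groups overlapped, with knockout-labelled library 5 at 44.2 TPM and the lowest control at 37.5 TPM. The call ended with limma on log2(TPM + 1), where the difference was -0.30 (adjusted p = 0.064).

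Gata6 is known from other liver cells and from heart, gut and peritoneal macrophages, and was the scarcest of the 7 genes. Gata6 (ENSMUSG00000005836.10; chromosome 18, 11052064 to 11085635, plus strand) had only 107 to 171 estimated counts per library. It was at 6.348, 7.08, 5.451, 4.814 and 6.105 CPM in controls and at 5.582, 6.861, 6.008, 5.34 and 7.153 CPM in knockout-labelled libraries. Each group spanned most of the range of the other. The means of 5.96 ± 0.866 and 6.19 ± 0.791 CPM (SD, n = 5 each) gave a log2 fold change of 0.05 ± 0.13 (SE, edgeR adjusted p = 0.82). The 95% interval of -0.23 to 0.34 does not contain the fall measured for Gata4, and it leaves room for smaller changes in either direction. The sign of this small difference turned under 4 alternatives, down to -0.03.

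Maf had the highest level and among the smallest called differences. Maf (ENSMUSG00000055435.6; chromosome 8, 115682942 to 115707794, minus strand) was at 1888, 1937, 1984, 2003 and 1746 CPM in controls and at 1541, 1615, 1671, 1673 and 1563 CPM in the knockout-labelled libraries. The groups did not overlap, and control 5, the lowest control, stood closest to the knockout-labelled libraries. With 36710 to 45500 estimated counts per library, the counting error of Maf is small beside the spread between libraries. Maf fell from 1912 ± 103 to 1613 ± 60.6 CPM (SD, n = 5 each), to 84.4% of the control level, by 0.25 ± 0.06 on the log2 scale (SE; 95% interval -0.37 to -0.13; edgeR adjusted p = 0.0076). Summed hepatocyte markers (10 genes, Alb and Apoa1 among them) ran from 493.8 to 1796 CPM in controls and from 494.6 to 1072 CPM in the knockout-labelled libraries, with 3 of 10 called lower. Much of that sum was Alb (471 and 447 CPM, not called), whereas Cyp2e1 and Cyp3a11 stood at 10.1% and 11.7% of their control means. Pck1, Ass1 and Hnf4a went the other way (log2 fold changes 0.90, 0.48 and 0.40), and none of these 3 was called. The median log2 fold change of the 10 markers was -1.18. With the mean log2 CPM of these markers as a covariate the Maf difference was -0.20 and was not called (edgeR adjusted p = 0.12, and 1.6e-05 to 0.12 over all alternatives). Because some of these markers differed between the groups, this covariate can take up part of the group difference, here and for the genes below.

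Tfec is known mainly from macrophages and retinal pigment epithelium, and was called lower under every alternative run. Tfec (ENSMUSG00000029553.10; chromosome 6, 16833373 to 16898441, minus strand) was at 66.59, 73.93, 76.8, 75.5 and 75.06 CPM in controls and at 51.96, 52.55, 54.96, 48.31 and 51.7 CPM in the knockout-labelled libraries. Control 1 stood below the other controls, and still above the highest knockout-labelled library. Tfec fell from 73.6 ± 4.04 to 51.9 ± 2.38 CPM (SD, n = 5 each), by 0.50 ± 0.05 on the log2 scale (SE; 95% interval -0.62 to -0.39; edgeR adjusted p = 2.5e-05). Macrophages are known to express both Tfec and Maf, so the values of macrophage markers are set beside these falls. Summed Kupffer cell and macrophage markers (10 genes, Adgre1, Clec4f and Csf1r among them) ran from 707.8 to 2221 CPM in controls and from 618.6 to 1521 CPM in the knockout-labelled libraries, and none of the 10 was called by edgeR, DESeq2 or limma-voom (1 was higher at an unadjusted edgeR p under 0.05). With their mean as a covariate Tfec fell by 0.50 and Maf fell by 0.25 on the log2 scale, and both were called (edgeR adjusted p = 3.3e-05 and 0.0080).

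**Figure D2:**
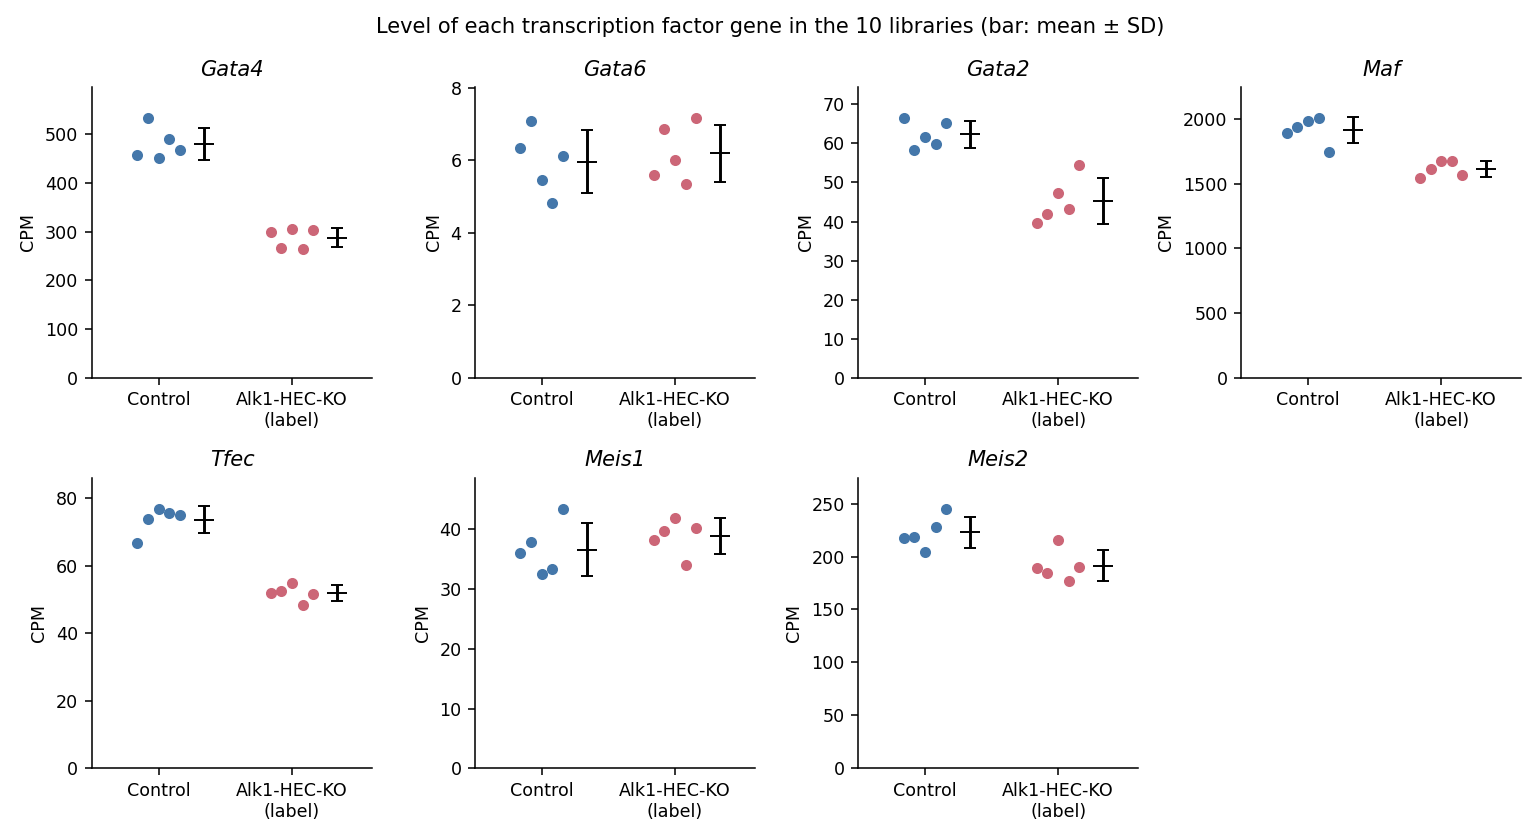
CPM of each of the 7 genes by library, with the mean and SD of each group (n = 5) as a bar beside the points and each axis starting at 0. Gata4, Gata2, Maf and Tfec show no overlap between the groups, Meis2 overlaps in 1 knockout-labelled library, and Gata6 and Meis1 overlap throughout.

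Meis2, a TALE homeodomain factor, was lower by a small and setting-dependent amount. Meis2 (ENSMUSG00000027210.20; chromosome 2, 115863064 to 116065839, minus strand) was at 217.9, 218.6, 204.7, 228.1 and 244.9 CPM in controls and at 189.2, 184.8, 215.6, 177.2 and 189.7 CPM in the knockout-labelled libraries. Knockout-labelled library 3 lay within the control range, and the other 4 lay below every control. Meis2 fell from 223 ± 14.9 to 191 ± 14.5 CPM (SD, n = 5 each), by 0.22 ± 0.06 on the log2 scale (SE; 95% interval -0.36 to -0.08; edgeR adjusted p = 0.030). The call ended in 12 of 25 alternatives, with adjusted p from 0.0077 to 0.56 over all of them. Among these were control 4 left out (adjusted p = 0.066), control 5 left out (0.069), and knockout-labelled library 1, 2, 4 or 5 left out (0.056, 0.064, 0.073 and 0.053), each by edgeR. On log2(TPM + 1) the Meis2 difference was -0.08 (limma adjusted p = 0.56).

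Meis1, the paralog of Meis2, is known from blood stem cells and endothelium. Meis1 (ENSMUSG00000020160.18; chromosome 11, 18879817 to 19018985, minus strand) was at 36.06, 37.82, 32.45, 33.28 and 43.38 CPM in controls and at 38.2, 39.78, 41.89, 34.0 and 40.19 CPM in the knockout-labelled libraries. All knockout-labelled values fell within the control range. The means of 36.6 ± 4.36 and 38.8 ± 2.99 CPM (SD, n = 5 each) gave a log2 fold change of 0.08 ± 0.08 (SE; 95% interval -0.10 to 0.27; edgeR adjusted p = 0.54). With the hepatocyte covariate the sign of the Meis1 difference turned to -0.02.

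Libraries within a group did not rank alike for all 7 genes. Knockout-labelled library 4 was the lowest of its group for Gata4, Gata6, Tfec, Meis1 and Meis2, and library 3 was the highest for Gata4, Tfec, Meis1 and Meis2. Library 5 was the highest of that group for Gata2 and Gata6. Among controls, number 5 was the highest for Meis1 and Meis2 and the lowest for Maf, and number 2 was the highest for Gata4 and Gata6. The coefficient of variation of Gata4 was 6.84% in controls and 7.02% in knockout-labelled libraries, and that of Gata6 was 14.5% and 12.8%.

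Ratios between pairs of the genes within a library do not depend on how libraries are scaled, and showed which of the differences were unequal. In each of 6 pairs an exact two-sided permutation test over all assignments of the libraries compared the log2 ratio of TPM between groups, and 0.0079 is the smallest p it can give. The ratio of Gata4 to Gata6 was 76.4, 82.0, 104, 110 and 95.3 in controls and 65.5, 41.8, 63.5, 59.7 and 50.7 in the knockout-labelled libraries. Every knockout-labelled library lay below every control, and the mean went from 93.5 ± 14.2 to 56.2 ± 9.85 (SD, n = 5 each; log2 difference -0.74, exact permutation p = 0.0079, adjusted over the 6 pairs 0.0095). The ratios of Gata4 to Gata2, to Maf and to Tfec also differed without overlap, by -0.35, -0.48 and -0.25 on the log2 scale, each with the same exact p and adjusted p. Gata4 thus fell by more than Gata2, Maf and Tfec, which themselves fell.

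The ratio of Meis1 to Meis2 was 0.157, 0.178, 0.165, 0.155 and 0.165 in controls and 0.194, 0.209, 0.19, 0.186 and 0.195 in the knockout-labelled libraries. The groups did not overlap, and each library kept close to the mean of its group. The mean ratio rose from 0.164 ± 0.00898 to 0.195 ± 0.00854 (SD, n = 5 each; log2 difference 0.25, exact permutation p = 0.0079, adjusted 0.0095). This ratio shows an unequal change of the paralogs and not which of them changed. The ratio of Gata6 to Gata2 went from 0.0759 ± 0.0136 to 0.0994 ± 0.0209 (SD, n = 5 each), with overlapping groups (log2 difference 0.39, exact permutation p = 0.040, adjusted 0.040). The call ended when any 1 of controls 1, 3, 4 and 5 or any 1 knockout-labelled library was left out (adjusted p = 0.064 to 0.079, exact permutation tests). With a library left out the test has fewer assignments, so its p can rise without a smaller difference. The log2 difference was 0.26 without knockout-labelled library 2 and 0.32 to 0.47 without any other library.

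**Figure D3:**
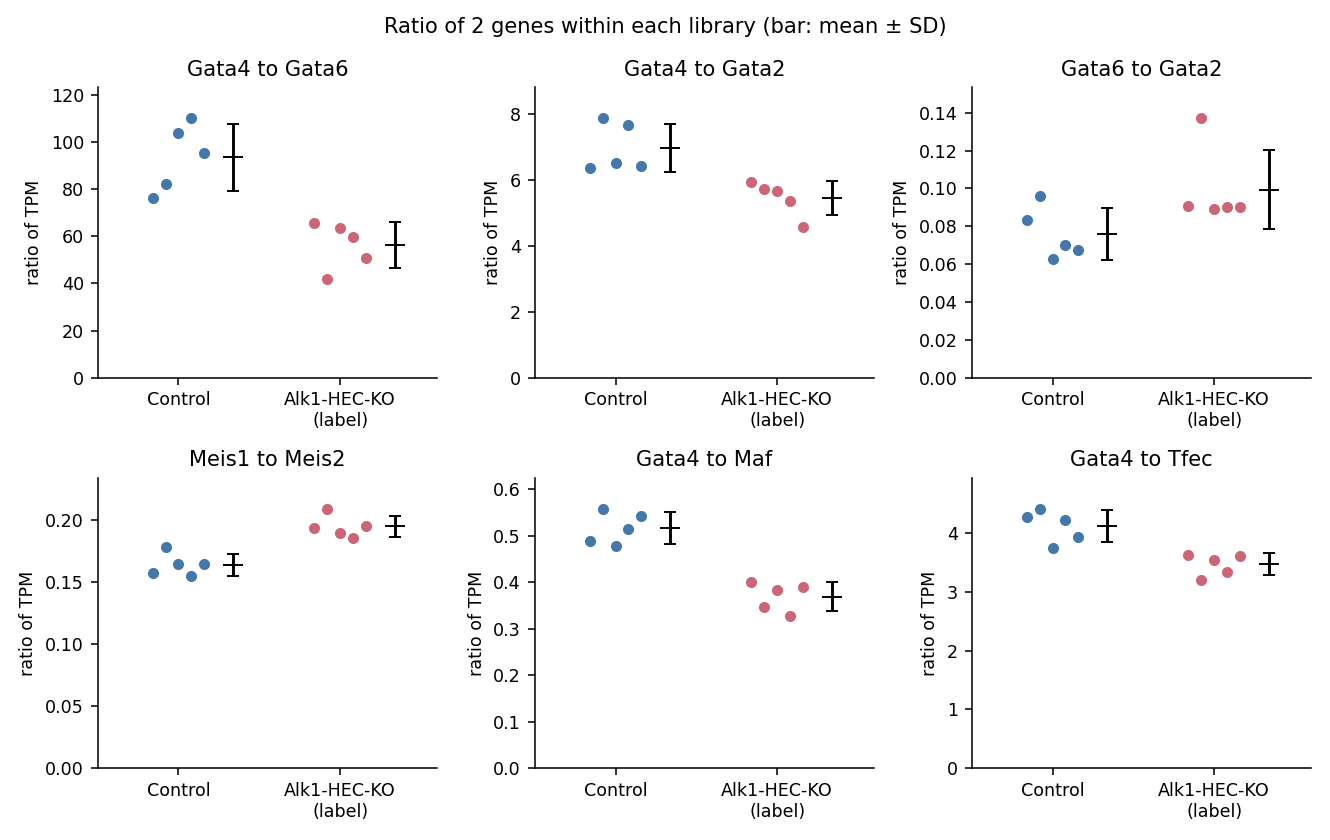
Ratios of TPM between pairs of the genes in each library, with the mean and SD of each group (n = 5) as a bar and each axis starting at 0. The groups separate fully for Gata4 to Gata6 (76.4 to 110 against 41.8 to 65.5) and Meis1 to Meis2 (0.155 to 0.178 against 0.186 to 0.209), and overlap for Gata6 to Gata2.

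Among other members of these families and proteins that bind them, 29 genes were tested and 5 were called (17.2%, beside 19.7% of all genes tested). Of 9 GATA family members and cofactors, 8 were tested, 2 were called lower and none higher (0 at an unadjusted p under 0.05), with a median log2 fold change of -0.18 beside 0.00 for all genes tested (here and below, calls are by edgeR, and DESeq2 and limma-voom gave the same counts for each count of 0). Zfpm2 (FOG2), a cofactor that binds GATA4 and modulates its activity, was at 13.83, 12.27, 9.289, 11.83 and 9.009 CPM in controls and at 6.883, 8.423, 7.192, 6.139 and 4.517 CPM in the knockout-labelled libraries. Its CPM groups did not overlap, and it fell from 11.3 ± 2.06 to 6.63 ± 1.44 CPM (SD, n = 5 each), by 0.76 ± 0.17 on the log2 scale (SE, edgeR adjusted p = 0.0065). In TPM the groups overlapped, with the lowest control at 2.87 TPM and the highest knockout-labelled library at 2.92 TPM. The Zfpm2 call ended with the hepatocyte covariate (-0.53, adjusted p = 0.10). Tal1, which joins GATA factors in multiprotein complexes, fell from 55.9 ± 1.02 to 50.6 ± 1.99 CPM, by 0.15 ± 0.04 (SE, edgeR adjusted p = 0.035), and its call ended in 14 of 25 alternatives, single libraries left out among them (without controls 1, 2, 4 or 5, or knockout-labelled libraries 2 or 4; adjusted p = 0.052 to 0.083). Zfpm1 (FOG1) was at 159 and 134 CPM (adjusted p = 0.071). The adaptors Lmo2 and Ldb1 had log2 fold changes of -0.04 and -0.09 and were not called. Gata3 and Gata5 were each under 1 CPM, and Gata1 had too few counts to be tested.

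Among 9 TALE-class partners of MEIS proteins, 8 were tested, 2 were called higher and none lower (1 at an unadjusted p under 0.05), with a median log2 fold change of 0.03. Pknox1 (PREP1), which like MEIS proteins pairs with PBX, rose from 36.6 ± 3.48 to 44.1 ± 4.98 CPM (SD, n = 5 each), by 0.27 ± 0.09 (SE, edgeR adjusted p = 0.044). Its highest value, 52.9 CPM, was in knockout-labelled library 5, and without that library it was not called (adjusted p = 0.10). Tgif1, a repressor of the same class, rose from 14.5 ± 1.49 to 17.8 ± 1.8 CPM, by 0.30 ± 0.09 (SE, edgeR adjusted p = 0.036). Both calls ended in 14 of 25 alternatives, which include leaving out any of controls 1, 2 and 4 or knockout-labelled libraries 1, 3 and 5 (adjusted p = 0.052 to 0.11), and for Pknox1 also control 5 or knockout-labelled libraries 2 or 4. Pbx2 and Pbx3, which encode PBX proteins, had log2 fold changes of -0.13 and 0.11 and were not called.

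The one large difference among relatives was in Mafa, a large MAF protein like c-MAF that is best known from pancreatic beta cells. Mafa was at 0.4625, 0.8153, 0.6542, 0.45 and 0.5123 CPM in controls and at 7.555, 9.861, 8.419, 12.11 and 7.529 CPM in the knockout-labelled libraries. It was under 1 CPM in every control and higher in all 5 knockout-labelled libraries, with totals of 67 and 1087 counts over the groups. Mafa rose 15.7-fold, from 0.579 ± 0.155 to 9.10 ± 1.93 CPM (SD, n = 5 each; log2 fold change 3.96 ± 0.21 SE, edgeR adjusted p = 1.0e-07), and was called under all 25 alternatives. In TPM it went from 0.348 to 5.83, against 581 and 512 TPM for Maf. Of 11 relatives and partners of Maf, 10 were tested and Mafa was the only one called, with a median log2 fold change of 0.06.

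The MiT-TFE relatives of Tfec are known as regulators of lysosomes and autophagy, and none of the 3 was called by edgeR, DESeq2 or limma-voom (1 was lower at an unadjusted edgeR p under 0.05). Without knockout-labelled library 5, Tfe3 alone was called lower (adjusted p = 0.038). Mitf was at 2.76 and 3.49 CPM (log2 fold change 0.34, adjusted p = 0.16) and Tfe3 at 109.6 and 98.3 CPM (-0.16, adjusted p = 0.12). Tfeb was at 24.1 and 26.3 CPM.

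**Figure D4:**
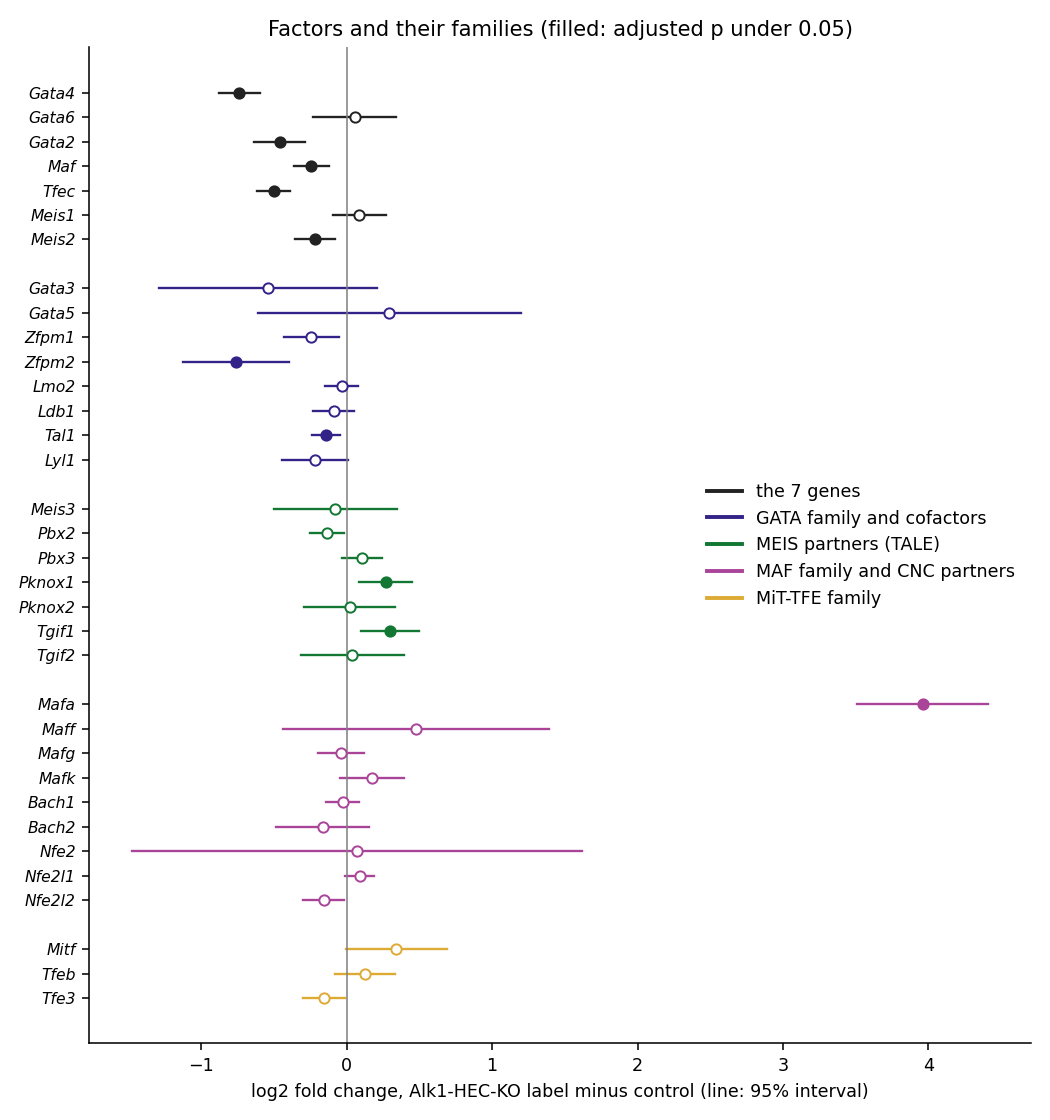
Log2 fold change (knockout-labelled against control) with 95% intervals for the 7 genes and for relatives and partners of theirs, grouped by family. Mafa lies far to the right at 3.96, and Gata4 and Zfpm2 lie lowest at -0.74 and -0.76.

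**Figure D5:**
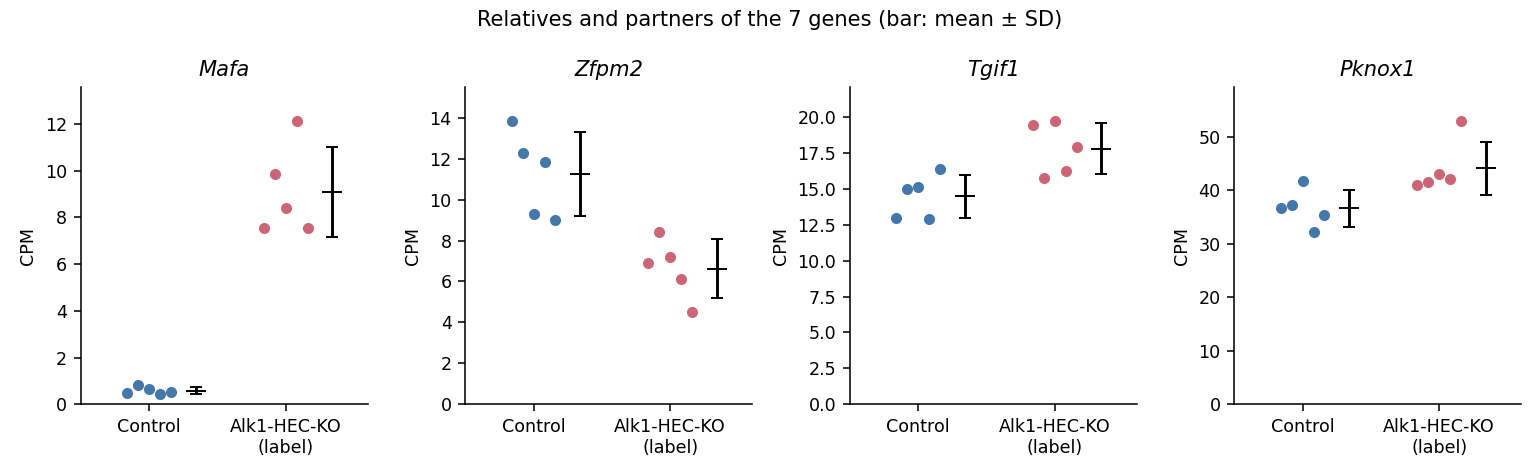
CPM by library of the relatives and partners Mafa, Zfpm2, Tgif1 and Pknox1, with the mean and SD of each group (n = 5) as a bar and each axis starting at 0. Mafa and Zfpm2 separate the groups, and the groups overlap for Tgif1 and Pknox1, where knockout-labelled library 5 is highest for Pknox1 at 52.9 CPM.

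Genes of sinusoidal endothelium and of continuous capillaries were described from lists chosen with earlier results of these data known. Whether their levels depend on Gata4 or the other factors was not tested. Of 17 sinusoidal endothelial genes, 14 were called lower, none higher (0 at an unadjusted p under 0.05) and 3 did not pass. Among all genes tested, 9.08% were called lower and 10.6% higher. The median log2 fold change of the 17 was -0.47. The 4 genes named next are the called members with the largest changes. By that choice their falls came near that of Gata4, and the other called members fell less. Plxnc1, a semaphorin receptor, fell from 1261 ± 44.5 to 759 ± 96.6 CPM (SD, n = 5 each), and F8, coagulation factor VIII, from 1346 ± 117 to 857 ± 61.2 CPM. Their log2 fold changes were -0.73 and -0.65, and those of Aass, an enzyme of lysine breakdown, and Clec4g, a sinusoidal lectin, were -0.64 and -0.63. Each of these 4 genes separated the groups without overlap and was called under every alternative run.

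Of 15 genes of continuous capillaries, basement membrane and the factors Pdgfb and Myc, 9 were called higher, 2 lower and 4 did not pass. Their median log2 fold change was 0.90, and of all genes tested 10.6% were called higher and 9.08% lower. The 4 that did not pass were Esm1, Hspg2, Lamb1 and Cd9, with log2 fold changes of 1.47, 0.25, 0.23 and -0.29. Ly6c1, a surface protein of continuous capillaries, rose from 17.3 ± 11.4 to 516 ± 78.4 CPM, and Apln, the apelin ligand of sprouting endothelium, from 6.22 ± 4.34 to 144 ± 30.4 CPM (SD, n = 5 each). Cd34 and Cav1, of endothelial surface and caveolae, rose by 3.11 and 2.15 on the log2 scale. Pdgfb and Myc, which are known to be raised where liver endothelium lacks Gata4, rose by 1.63 ± 0.16 and 1.31 ± 0.17 (SE, edgeR adjusted p = 4.9e-05 and 2.2e-04). Whether these 2 rises depend on Gata4 was not tested. Plvap, of fenestral diaphragms, and Vwf, of large-vessel endothelium, were the 2 called lower. Vwf fell by 1.70 on the log2 scale and Plvap fell by 0.35. The other called genes, Emcn, an endothelial sialomucin, and the basement membrane collagens Col4a1 and Col4a2, rose by 0.90, 0.84 and 0.70.

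Markers of other cells that can express these genes moved with the groups in part. Stellate cells and mesothelium are known to express Gata4 or Gata6. Summed stellate and fibroblast markers (10 genes) ran from 136.9 to 222.6 CPM in controls and from 208.4 to 309.6 CPM in the knockout-labelled libraries. Among them Col1a1, Col3a1 and Ngfr were called higher (Ngfr not in 10 of 24 alternatives), and the other 7 were not called. Of all genes tested, 10.6% were called higher. Mesothelial markers (5 genes, none called by edgeR, also at an unadjusted p under 0.05) summed to 14.8 to 48.9 and 25.5 to 67.7 CPM. Bile duct markers (6 genes, 5 called higher) summed to 183 to 264 and 361 to 617 CPM, most of it Spp1 (means of 197 and 429 CPM). Lymphatic markers (4 genes) summed to 1519 to 1863 and 1381 to 1736 CPM, nearly all of it Flt4, which is also on the sinusoidal list (1682 and 1474 CPM, not called). The other 3 lymphatic markers had higher means in the knockout-labelled libraries, and Prox1 was called (7.224 and 10.97 CPM; not called in 9 of 25 alternatives). Mast cell and basophil markers, set beside Gata2, summed to 103 to 161 and 90.6 to 128 CPM, nearly all of it Hdc, and Cpa3, a defining mast cell marker, had 2 and 6 counts in all over the groups. Megakaryocyte markers summed to 12.2 to 19.4 and 12.4 to 20.6 CPM, T and NK cell markers to 17.0 to 23.8 and 13.5 to 30.2 CPM (2 of 7 called lower), and B cell markers to 9.73 to 17.0 and 11.5 to 33.7 CPM. No marker was at 0 in all libraries. The part of these cells in the differences of the 7 genes was not tested. The hepatocyte and macrophage covariates were run only as alternative fits.

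Genes beside or within the 7 loci added few reads. No annotated gene overlapped Gata4 or Tfec or started within 5 kb of their starts. At Maf an antisense gene, Gm15655, had 0 counts in every library, and at Gata6 an antisense transcript sharing 504 bases, 1010001N08Rik, had 2 to 10 counts. The 5 small genes within Meis1 had at most 9.1 counts each. Only at Meis2 was a neighbour above this level: the lincRNA 2700033N17Rik, on the same strand and starting 1605 bases upstream, had 69 to 106 counts per library, with means of 3.997 ± 0.467 and 3.326 ± 0.575 CPM (log2 fold change -0.26, edgeR adjusted p = 0.24; SD, n = 5 each). The sources used here do not say whether the libraries kept the strand, so reads of antisense partners cannot be told apart.

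The genes with the pattern most like each called gene were taken from 10229 genes averaging 5 CPM or more, by the root mean square difference of centred log2 CPM over the 10 libraries. Gata4 was closest to Aldh2, a mitochondrial aldehyde dehydrogenase (difference 0.07; 926 and 598 CPM), and to Tpbgl (0.08). Tfec was closest to Sgpp1, a sphingosine-1-phosphate phosphatase (0.05), and to Nucb1, a Golgi calcium-binding protein (0.07). Gata2 was closest to Rab3d, a GTPase of regulated secretion (0.07), and Hid1 (0.07), and Maf to Cd47, the receptor ligand that restrains phagocytosis (0.04), and Sbds, a ribosome assembly factor (0.04). Meis2 was closest to Pcmtd1 (0.03) and Slc25a36, a mitochondrial pyrimidine carrier (0.04), of which the first did not pass the test (edgeR adjusted p = 0.051) and the second passed at 0.050, a call that ended in 20 of 25 alternatives. These likenesses describe 10 libraries that share the same group difference.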

How the data were processed

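Gene expression in mouse liver endothelial cells was measured by RNA-seq in 5 Alk1-HEC-KO and 5 Control libraries; groups and replicate numbers came from the titles. The submitters' processing notes name Trim Galore 0.6.4, kallisto 0.4.6 and the build GRCm38.p6. The authors deposited estimated counts and TPM per gene, 1 library per file. The sources used here do not give the annotation release or how transcripts were summed. Kallisto shares reads between similar transcripts in proportion, so values of near-identical genes such as Ly6c1 are uncertain.

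Of 55385 identifiers, 55144 matched a symbol of GENCODE M21 by stable identifier, 54487 with the version; positions are those of that annotation on GRCm38. Libraries of a group differed beyond counting noise (chi-square per degree of freedom 10.4 to 29.6), so all 10 were kept. With 23489494 to 23602771 counts per library, counting error is large only for scarce genes such as Gata6.

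Rounded estimated counts went into edgeR 4.0.16 (R 4.3.3): filterByExpr with a minimum count of 10 (15043 genes, 99.87 to 99.9% of counts), TMM scaling (factors 0.94 to 1.04), the robust quasi-likelihood test on genotype alone, and Benjamini-Hochberg adjustment over all genes tested, threshold 0.05. CPM used TMM-scaled totals, and log2 CPM a prior count of 2. The procedure was tested on simulated data. Fold changes on TPM came from limma 3.58.1 on log2(TPM + 1) or log2(TPM + 0.1), a scale that understates changes of low genes. Other alternatives were DESeq2 1.42.0, limma-voom, other scalings and filters, length offsets, covariates, the replicate number as a block, and libraries left out.

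The genes, the lists and the rule for naming genes were chosen with earlier results of these data known. The rule took the 7 genes, Acvrl1, up to 4 called members of each list by size of change (or the 2 with the smallest p), neighbours of the loci, and the 2 genes most like each called gene. Named from the lists outside this rule, after their values were seen, were Zfpm1, Lmo2, Ldb1, Gata1, Gata3, Gata5, Pbx2, Pbx3, Tfeb, Pdgfb, Myc, Plvap, Vwf, Emcn, Col4a1, Col4a2, Alb, Flt4 and Cpa3. Pck1, Ass1, Hnf4a, Cd9, Esm1, Lamb1 and Hspg2 were also named in this way. Some list members are counted with their lists and not reported here by name.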

Additional observations from a re-analysis of the deposited data

Results flagged for a closer look

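Each named gene and each ratio was examined in both groups for a library far from the others by Dixon's test, 134 groups in all, of which chance flags about 1 in 20. There were 5 such libraries. Tfec was at 66.59 CPM in control 1 against 73.93 to 76.8 CPM in the other controls. The ratio of Gata6 to Gata2 TPM was 0.137 in knockout-labelled library 2 against 0.0892 to 0.0908 in the others of that group, and without that library the log2 difference was 0.26 (exact permutation test, adjusted p = 0.079). Pknox1 was at 52.91 CPM in knockout-labelled library 5 against 41.05 to 43.08 CPM. Pcmtd1, the gene most like Meis2, was at 109.7 CPM in knockout-labelled library 3 against 89.81 to 92.61 CPM, the same library in which Meis2 was highest. Cma1, a mast cell marker, was at 2.958 CPM in knockout-labelled library 2 against 0.6692 to 1.177 CPM.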

How the results depend on the processing

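Gata4 and Tfec were called lower under all 25 alternatives (log2 fold changes -0.77 to -0.66 and -0.54 to -0.41), Gata2 under 23, Maf under 24 and Meis2 under 13. Of the 7 genes, 3 were called lower on log2(TPM + 1) and on log2(TPM + 0.1), where the median of all genes moved by 0.08 and 0.10, and 4 or 5 otherwise. Gata6, called nowhere, turned sign with length offsets (-0.026), without control 4 (-0.014), without knockout-labelled library 5 (-0.010) and without controls 4 and 5, an alternative chosen after seeing the data (-0.033), with 1 library left out at a time giving -0.014 to 0.12. Meis1 turned with the hepatocyte covariate (-0.017). C1qb and Itga2b, markers of macrophages and platelets, turned without control 3 (0.16 and 0.032; with 1 library left out -0.35 to 0.16 and -0.19 to 0.032). The causes were not tested.

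Over all genes, the hepatocyte covariate left 1650 called (942 higher, 708 lower), the fit without controls 4 and 5 left 1940 (866 lower), and the 2 TPM fits called 664 and 668 lower, against 2959 (1366 lower). Of the GATA relatives and cofactors, 1 was called lower with library size alone, pan-endothelial scaling, no filter, both TPM fits and without controls 4 and 5, and 0 with the hepatocyte covariate (1 to 3 with 1 library left out). Of the TALE partners, 0 were called higher with pan-endothelial scaling, length offsets, the hepatocyte covariate or without controls 4 and 5, and 1 with no filter or either TPM fit (0 to 2 with 1 library left out). Of the MiT-TFE relatives, 0 to 1 was called lower with 1 library left out. The Gata6 to Gata2 log2 difference was 0.26 to 0.47 with 1 library left out. The sinusoidal list had 12 to 15 called lower and the capillary list 9 to 11 higher.

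Deviations of same-numbered libraries from their group means correlated at -0.196, 0.35, 0.015, 0.108 and 0.284, and not every library correlated best with its own number, so the libraries were taken to share a number and not a pairing. With the replicate block, 2567 genes were called, 4 of the 7 genes were lower (Meis2 at -0.22, edgeR adjusted p = 0.076), 1 GATA relative was lower and 0 TALE partners were higher. For the ratios the block is a sign-flip test of 5 pairs, whose smallest exact p is 0.0625. All 6 reached it, at log2 differences of -0.739 (Gata4 to Gata6), -0.354 (Gata4 to Gata2), 0.385 (Gata6 to Gata2), 0.25 (Meis1 to Meis2), -0.483 (Gata4 to Maf) and -0.248 (Gata4 to Tfec). Gata6 had the fewest counts of the 7 genes, 107 to 171 per library.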
